A study of Homo sapiens with 8 samples.

Results

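Chromatin accessibility was followed at 9 genes that encode the insulator protein CTCF and the machinery of cohesin, the ring complex that extrudes loops of DNA. The members are the 77 peaks, of 129536 in the whole table, that overlap the body of CTCF, RAD21, SMC3, STAG1, NIPBL, MAU2, WAPL, PDS5A or PDS5B, or lie within 10 kb of either side, by RefSeq gene positions. Omni-ATAC-seq, which maps open chromatin with a transposase that cuts accessible DNA in nuclei, was run on HEK293 cells, a human embryonic kidney line, whose genotype is labelled eGFP-YAP. The 4 vehicle libraries carry the time 0 h in their names, and the 4 sorbitol libraries come from cells kept for 1 h in 0.2 M (200 mM) sorbitol, a sugar alcohol that makes the medium hyperosmotic. Both groups share the eGFP-YAP genotype and, by the series design, an hour of serum starvation. The sample titles and library names call the line HEK293 or wt, and no label says whether replicates were separate cultures or whether the line is a clone, so the p-values measure only the spread between these libraries. The library names carry a number that vehicle 1 and 2 share, as do vehicle 3 and 4 and likewise the sorbitol libraries; its meaning is not stated, and if it marks a culture, n is 2 rather than 4 in each group.

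The libraries held 11522266 to 19831471 counts in peaks, more in each vehicle library than in any sorbitol library. The main axis of variation (45.6% of the variance) separated the treatments, and the next (11.6%) set vehicle 4 apart from sorbitol 4. Gene-end peaks were present at 5 of 6 genes often reported as active in HEK293 cells, with none at PAX2, and at 2 of 8 genes of blood, liver, pancreas and epithelium, at a vehicle mean of 1.19 CPM or less. CPM stands for the usual per-library scaling of counts, here to library sizes adjusted by trimmed-mean (TMM) factors.

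CTCF binds DNA at a directional motif and stops extruding cohesin, which places the anchors of many chromatin loops. Cohesin consists of SMC proteins (among them SMC3), the kleisin RAD21 and a STAG subunit such as STAG1. NIPBL with its partner MAU2 loads cohesin and drives extrusion, whereas WAPL, helped by PDS5A and PDS5B, releases it from DNA. Accessibility at these genes is a property of their own DNA and does not measure where their proteins bind, which the series addresses by CUT&Tag and Hi-C, not used here.

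The sequences of the gene starts are shown because the strongest peak of each locus lay there. Of the 9 genes, 8 matched the RefSeq promoter table (GRCh38.p14), and the 250 bases before the start are printed for the 5 of them whose start peak passed the test described below. Each stretch lies wholly within its peak. Capitals mark matches to the searched motifs, on either strand.
CTCF, chr16:67562276-67562525, plus strand: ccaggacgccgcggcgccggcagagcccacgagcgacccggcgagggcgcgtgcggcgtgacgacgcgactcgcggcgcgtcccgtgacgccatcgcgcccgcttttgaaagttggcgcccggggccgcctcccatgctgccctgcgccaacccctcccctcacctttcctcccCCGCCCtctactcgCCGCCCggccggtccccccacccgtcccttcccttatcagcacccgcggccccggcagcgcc
STAG1, chr3:136752379-136752628, minus strand: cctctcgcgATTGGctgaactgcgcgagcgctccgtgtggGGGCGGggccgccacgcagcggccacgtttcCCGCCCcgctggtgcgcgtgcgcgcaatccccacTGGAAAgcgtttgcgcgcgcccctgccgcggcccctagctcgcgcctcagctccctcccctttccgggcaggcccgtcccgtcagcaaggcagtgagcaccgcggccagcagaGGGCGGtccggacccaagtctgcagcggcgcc
NIPBL, chr5:36876519-36876768, plus strand: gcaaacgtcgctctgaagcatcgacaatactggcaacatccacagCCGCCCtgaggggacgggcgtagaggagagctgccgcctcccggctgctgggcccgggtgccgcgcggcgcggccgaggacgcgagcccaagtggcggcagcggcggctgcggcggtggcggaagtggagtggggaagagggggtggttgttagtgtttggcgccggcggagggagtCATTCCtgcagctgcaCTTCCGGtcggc
MAU2, chr19:19320579-19320828, plus strand: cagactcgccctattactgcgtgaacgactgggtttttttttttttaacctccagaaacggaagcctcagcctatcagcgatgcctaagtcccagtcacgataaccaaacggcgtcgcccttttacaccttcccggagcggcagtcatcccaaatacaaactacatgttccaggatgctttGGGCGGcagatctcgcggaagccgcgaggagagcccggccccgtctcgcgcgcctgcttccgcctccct
PDS5A, chr4:39977912-39978161, minus strand: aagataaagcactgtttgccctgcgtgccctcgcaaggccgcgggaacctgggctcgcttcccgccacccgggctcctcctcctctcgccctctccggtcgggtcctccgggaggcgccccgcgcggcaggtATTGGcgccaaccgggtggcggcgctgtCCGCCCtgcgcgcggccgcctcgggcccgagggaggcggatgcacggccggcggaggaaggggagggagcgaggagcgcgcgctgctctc

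The SP/KLF letters GGGCGG occurred in the 300-base start window (250 bases before to 50 after) of all 8 genes, against 45.0% of 35116 promoters in the table. The NF-Y letters CCAAT occurred at STAG1, WAPL, PDS5A and PDS5B, against 34.6% of promoters. NIPBL alone held the ETS letters CCGGAAG (10.3% of promoters) and the TEAD letters CATTCC (14%), TEAD being the DNA-binding partner of YAP, and STAG1 alone held the NFAT core TGGAAA (20.7%). The NRF1 motif (1.24%), the AP-1 letters TGANTCA (7.71%) and the YY1 letters AAGATGGC (2.89%) were in none of the 8 windows. No match overlapped another. G and C made up 52.8% (SMC3) to 78.0% (PDS5B) of the 250 bases, with a median of 58.0% over all promoters, and 2 of the 8, SMC3 and MAU2 (56.8%), lay below it. These matches describe the letters only.

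The question was how accessibility at these loci differs after 1 h of sorbitol. Counts were fitted for all peaks with edgeR's quasi-likelihood test, p-values were adjusted over all 129487 tested peaks, and a peak was called changed at an adjusted p under 0.05, as were 29.1% of them. All 77 member peaks passed the filter on low counts. Of them, 14 rose and 12 fell, and their median log2 fold change was 0.08, against 0.01 over all tested peaks. Over all tested peaks 16% rose and 13.1% fell, so the share of member peaks called in each direction (18.2% and 15.6%) was close to that of the table. The direction followed position. Of 11 peaks within 1 kb of the members' own gene ends, all at the start side, 7 fell and none rose, whereas of 52 peaks inside the genes 13 rose and 2 fell. In the table as a whole, 32.8% of peaks at any gene end fell and 8.74% rose, and 18.9% of peaks inside genes away from ends rose and 8.58% fell. The split by position was therefore the direction found across the genome, and the members' own-end median was -0.25 against -0.17 for all gene-end peaks.

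**Figure D1:**
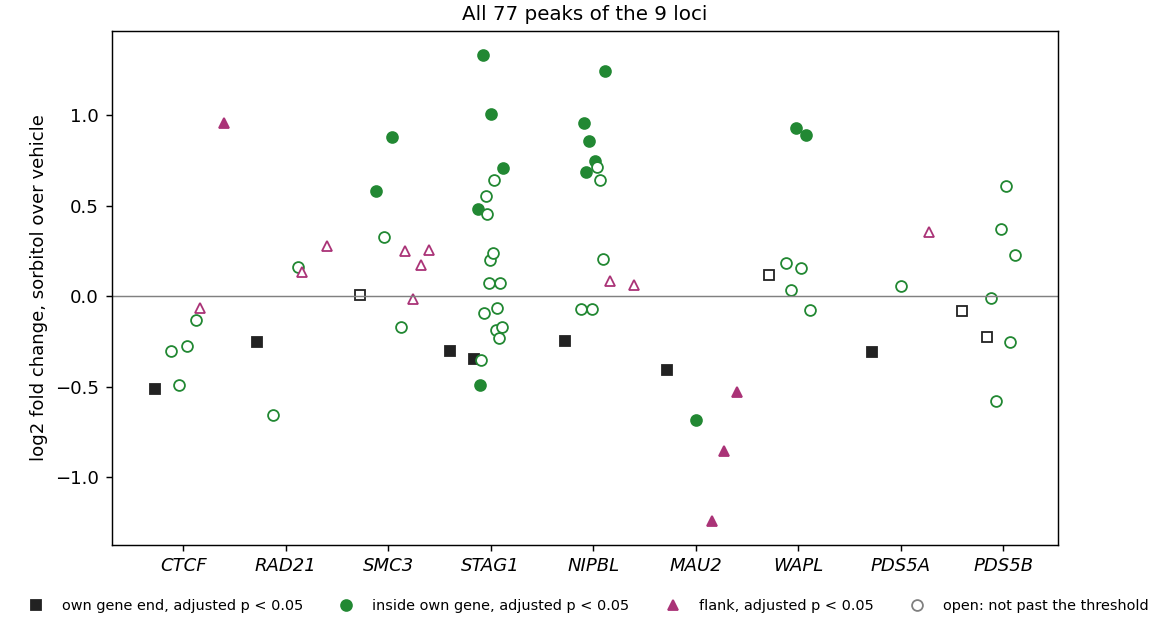
Log2 fold change (sorbitol over vehicle, vertical axis) of each of the 77 peaks by gene, with squares for peaks at the gene's own ends, circles for peaks inside the gene and triangles for peaks in the 10 kb flanks; filled symbols passed the adjusted threshold. The filled squares all lie below 0, most filled circles lie above 0, and MAU2 has only filled symbols below 0.

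The split between higher and lower calls moved with the scaling of the libraries. Higher peaks made up 54.9% of all calls with factors from all peaks (14 higher and 12 lower members), 67.4% with library totals alone (18 and 8) and 79.7% with factors from gene-end peaks (20 and 6). Under gene-end factors the median over the whole table was 0.19 rather than 0.01. With them, and with a loess offset that removes trends with peak strength, the 7 lower own-end peaks became 2, at CTCF and MAU2, while 2 rose, at SMC3 and WAPL. Leaving out vehicle 1 or sorbitol 3 left 4 lower own-end peaks. The 13 higher and 2 lower peaks inside genes became 7 and 4 with the loess offset. Without vehicle 1 or without sorbitol 1 the higher peaks inside genes numbered 7, and without sorbitol 3 they numbered 8.

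At the starts of CTCF and the core subunits, the CTCF peak fell the most, RAD21 and STAG1 fell less, and SMC3 showed no change that passed the test. All values below are CPM. The CTCF start peak (chr16:67561648-67563421), which also covers the start of the divergent CTCF-DT and part of LOC124903703, had 59.2, 57.1, 54.8 and 56.2 in vehicle libraries 1 to 4 and 36.5, 41.8, 41.9 and 39.4 in sorbitol libraries 1 to 4. Every sorbitol library lay below every vehicle library, and the log2 fold change was -0.51 with a standard error of 0.08 (edgeR adjusted p = 2.22e-06). Among all tested peaks, groups were apart in the lower direction at 12.6% and in the higher direction at 13.7%.

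The kleisin gene RAD21 had its only end peak at chr8:116874074-116875231, where RAD21-AS1 and MIR3610 also lie. The vehicle values were 37.9, 36.8, 37.2 and 31.3, and the sorbitol values were 29.8, 32.1, 27.9 and 30.5. Vehicle 4 was low and fell within the sorbitol range, so the groups overlapped, and the log2 fold change was -0.25 ± 0.09 (SE, edgeR adjusted p = 0.0231). This call was lost without vehicle 1, 2 or 3 or without sorbitol 3, with adjusted p from 0.0608 to 0.0816, and with library totals alone (0.107). Gene-end factors (edgeR adjusted p = 0.482) and the loess offset (0.425) also lost it.

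The STAG1 start peak (chr3:136752183-136753134), shared with the divergent STAG1-DT, had 65.97, 64.3, 59.5 and 50.6 in vehicle and 48.1, 46.3, 45.03 and 49.8 in sorbitol. Vehicle 4 came close to the sorbitol libraries without reaching them. The log2 fold change was -0.34 ± 0.08 (SE, edgeR adjusted p = 0.00121). That call was lost under 3 of 21 alternatives, among them gene-end factors (edgeR adjusted p = 0.0685) and the loess offset (0.115). A smaller STAG1 peak just inside the gene (chr3:136751338-136751801) also fell, with a log2 fold change of -0.30 (adjusted p = 0.0279).

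SMC3, which encodes the SMC subunit paired with SMC1A, had the peak with most counts of the 9 starts (chr10:110566537-110568597), which also overlaps LOC105378483. Its vehicle values were 97.5, 105.3, 94.4 and 94.4 and its sorbitol values 86.5, 105.7, 100.4 and 101.4. The groups overlapped throughout, and the log2 fold change was 0.01 ± 0.08 (SE, adjusted p = 0.946). Its sign depended on the setting (below 0 with DESeq2 size factors, and 0.18 with an adjusted p of 0.0197 with gene-end factors).

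Among the loaders, both start peaks fell. The NIPBL start peak (chr5:36875766-36877669), shared with NIPBL-DT, had 47.5, 46.02, 45.4 and 42.8 in vehicle and 39.9, 35.5, 36.5 and 41.4 in sorbitol. The groups did not overlap, although vehicle 4 and sorbitol 4 differed by little, and the log2 fold change was -0.25 ± 0.08 (SE, adjusted p = 0.0192). The call was lost without vehicle 1, sorbitol 2 or sorbitol 3 (adjusted p from 0.0543 to 0.0848) and with library totals alone (0.0973). Gene-end factors (edgeR adjusted p = 0.492) and the loess offset (0.535) also lost it. The MAU2 start peak (chr19:19320198-19321552) also overlaps a boundary of the protein-coding gene SUGP1, whose direction was not examined. It had 31.2, 37.3, 35.6 and 35.4 in vehicle and 24.1, 28.9, 23.4 and 28.9 in sorbitol. No sorbitol library reached a vehicle library there, and the log2 fold change was -0.40 ± 0.09 (SE, adjusted p = 0.000525).

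Of the release factors, PDS5A fell at its start and WAPL and PDS5B did not change by the test. The PDS5A start peak (chr4:39976361-39978337) had 34.8, 37.1, 34.9 and 38.6 in vehicle and 28.2, 28.8, 28.04 and 32.1 in sorbitol, with no overlap and a log2 fold change of -0.31 ± 0.09 (SE, adjusted p = 0.00453). That call was lost under 3 of 21 alternatives, among them gene-end factors (edgeR adjusted p = 0.170) and the loess offset (0.147). The WAPL start peak (chr10:86520885-86522535), shared with WAPL-DT, had 61.4, 60.6, 59.9 and 59.5 in vehicle and 62.8, 66.1, 62.2 and 70.7 in sorbitol. Every sorbitol library was above every vehicle library, yet the log2 fold change of 0.12 ± 0.08 (SE) had an adjusted p of 0.261. With library totals alone it was 0.20 (adjusted p = 0.0242). The PDS5B start peak (chr13:32585759-32586756), shared with PDS5B-DT, had 23.3, 23.3, 21.3 and 25.9 in vehicle and 21.99, 25.7, 20 and 20.8 in sorbitol, which overlap (log2 fold change -0.08 ± 0.10, SE, adjusted p = 0.572). Its sign turned with library totals, gene-end factors and the loess offset.

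**Figure D2:**
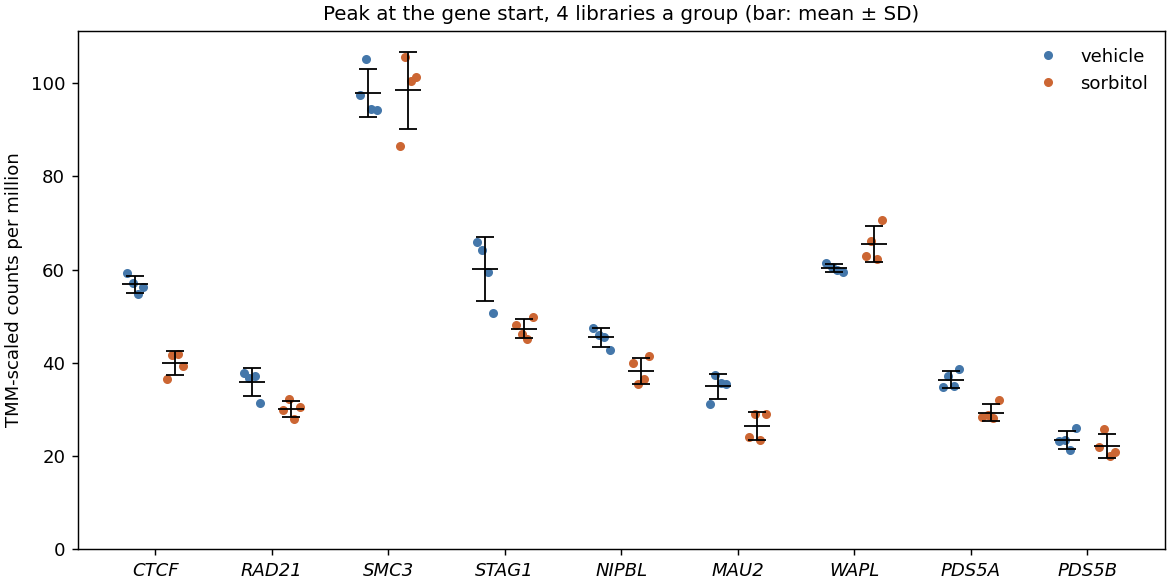
CPM (vertical axis, from 0) at the start peak of each of the 9 genes; each point is a library, and the bars give the mean and SD of 4 vehicle (blue) or 4 sorbitol (orange) libraries. CTCF shows the widest gap between the groups, SMC3 and PDS5B overlap, and WAPL is the only gene whose sorbitol points all lie above the vehicle points.

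Of the starts, 6 of 9 fell and none rose, where 43.2% of peaks at protein-coding gene starts fell and 6.59% rose. All 9 start peaks belonged to the strongest decile of tested peaks by mean count, in which 44.4% fell and 8.20% rose, so strength and position at a start move together here and cannot be told apart. The ratio of the CTCF to the WAPL start peak, the pair with the lowest and highest log2 fold change of the 9, does not depend on the library factors. It was 0.965, 0.942, 0.915 and 0.946 in vehicle and 0.581, 0.632, 0.674 and 0.557 in sorbitol. The pair was chosen for its values, and no test was made.

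Per kilobase of peak, the start levels in vehicle ran from STAG1 (63.1 ± 7.26 CPM per kb, SD, n = 4) through SMC3 (47.5 ± 2.50), WAPL (36.6 ± 0.513), CTCF (32.0 ± 1.04), RAD21 (30.9 ± 2.64), MAU2 (25.8 ± 1.92), NIPBL (23.9 ± 1.03) and PDS5B (23.5 ± 1.92) to PDS5A (18.4 ± 0.932). The libraries of CTCF and RAD21, of RAD21 and MAU2, of MAU2 and NIPBL, and of NIPBL and PDS5B overlapped, so the order within those pairs is not settled. After sorbitol STAG1 (49.7 ± 2.21) and SMC3 (47.8 ± 4.04) overlapped, and CTCF (22.5 ± 1.44) came after RAD21 (26.0 ± 1.52), from which it was separate.

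The gene-end peaks of the whole table most like the CTCF start peak over the 8 libraries were a peak at the transfer RNA genes TRI-AAT5-1 and TRP-AGG2-2 on chromosome 6 and peaks at UQCR11 and APC2 on chromosome 19, TIGD5 on chromosome 8 and COX5B on chromosome 2. Their log2 values followed those of CTCF with Pearson coefficients of 0.993 to 0.998, a description that mainly carries the difference between the groups. Their own log2 fold changes ran from -1.13 to -0.43.

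Away from the starts, accessibility rose at 5 intragenic peaks of NIPBL and 4 of STAG1 and fell at all peaks of the MAU2 locus. Of the 66 member peaks away from their own gene ends, 14 rose and 5 fell, where 17.7% of all peaks away from gene ends rose and 8.38% fell. At least 2-fold changes that passed the test were 3 higher (5.27% of all tested peaks) and 1 lower (0.881%). These peaks were much weaker: those inside the genes had a median of 25.6 counts per library, against 486.9 for own-end peaks. All 10 changed members among the 44 with a mean under 50 counts rose. In the table, calls in the 5 weakest deciles of peaks, which hold most of these 44, were 14.5% to 29.7% higher and 2.65% to 6.52% lower. Across the 77 peaks, Spearman's rho between fold change and mean count was -0.38, a description over peaks that share libraries.

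NIPBL had 13 peaks, of which 5 rose and 1, the start peak, fell. The rise with the smallest p-value lay inside the gene (chr5:36928705-36929460), with 3.81, 4.70, 4.49 and 4.65 in vehicle and 8.25, 8.47, 10.04 and 7.70 in sorbitol. The sorbitol values were all well above the vehicle values, and the log2 fold change was 0.96 ± 0.15 (SE, edgeR adjusted p = 1.7e-06). Near the 3′ end of the gene, a peak at chr5:37055698-37055971 went from 0.816, 1.08, 0.619 and 1.23 to 2.25, 2.72, 2.01 and 1.86, a log2 fold change of 1.24 ± 0.30 (SE, adjusted p = 0.00106). Both calls held under every alternative that tested these peaks. The other 3 risen NIPBL peaks had log2 fold changes of 0.69, 0.75 and 0.86, also with groups apart.

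STAG1, the longest of these genes, had 20 peaks, of which 4 rose and 3 fell. A peak deep in the gene body (chr3:136499021-136499429) had 1.224, 1.39, 0.774 and 0.890 in vehicle and 3.42, 2.64, 2.26 and 2.47 in sorbitol. The groups were apart, and the log2 fold change of 1.34 ± 0.27 (SE, adjusted p = 0.000163) was the highest of the 77. A weaker peak (chr3:136675982-136676186) went from 0.680, 1.20, 0.516 and 0.890 to 2.08, 1.55, 1.92 and 1.10, a log2 fold change of 1.01 ± 0.33 (SE, adjusted p = 0.0167). Its groups overlapped through vehicle 2 and sorbitol 4, and 6 of 20 alternatives lost the call, among them leaving out vehicle 3, sorbitol 1 or sorbitol 3 (adjusted p from 0.0540 to 0.0790). A peak at chr3:136747141-136747512, nearer the start, rose by 0.71 on the log2 scale (adjusted p = 0.00173), although its groups overlapped, and chr3:136391572-136392034, toward the far end of the gene, fell (-0.49, adjusted p = 0.0421).

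MAU2 differed from the others in that all 5 of its peaks fell. Its intragenic peak (chr19:19342323-19343147) had 10.8, 11.7, 10.8 and 10.9 in vehicle and 5.75, 6.84, 6.61 and 8.31 in sorbitol, with a log2 fold change of -0.68 ± 0.13 (SE, adjusted p = 6.84e-05). The downstream flank, which holds LOC124904656, had the lowest fold change of all members, at chr19:19360976-19361537. That peak had 11.2, 11.3, 11.6 and 10.3 in vehicle and 4.83, 5.21, 3.85 and 4.81 in sorbitol, wholly apart, with a log2 fold change of -1.24 ± 0.14 (SE, adjusted p = 9.72e-10). The other flank peaks had -0.85 (adjusted p = 3.39e-05) and -0.53 (adjusted p = 0.000361). Chromosome 19 as a whole had 49% lower and 3.41% higher peaks and a median log2 fold change of -0.45, and the part of this chromosome-wide shift in the MAU2 values was not tested.

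**Figure D3:**
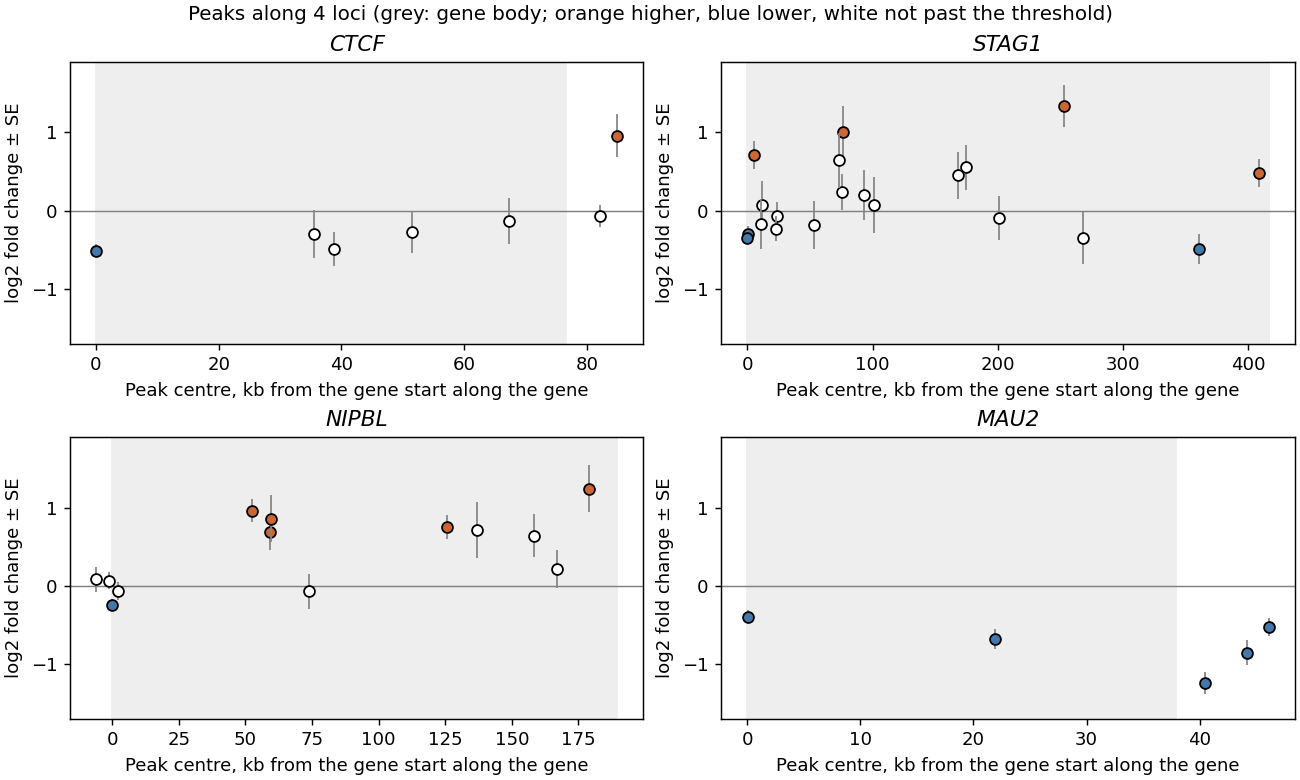
Log2 fold change with standard error (vertical axis) of each peak against its distance from the gene start in kb (horizontal axis) at CTCF, STAG1, NIPBL and MAU2; grey marks the gene body, and orange, blue and white points are higher, lower and not past the threshold. NIPBL has its lowest value, -0.25, at the start and its highest, 1.24, near its far end. The peaks between do not rise steadily (0.96 comes before -0.07). Each MAU2 point is below 0.

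The remaining loci had few changed peaks away from their starts. SMC3 had 2 higher peaks of 9, at chr10:110585123-110585396 (vehicle 1.09, 1.45, 0.464 and 1.57, sorbitol 1.33, 3.03, 2.34 and 1.58, log2 fold change 0.88 ± 0.31, SE, adjusted p = 0.0284) and at chr10:110574497-110574894 (0.58, adjusted p = 0.0354). The former had overlapping groups, and its call was lost under 8 of 20 alternatives. WAPL had 2 higher peaks of 7, with log2 fold changes of 0.93 and 0.89, each with overlapping groups. At the peak with the smaller p-value (chr10:86506607-86506823) the vehicle values were 0.612, 1.81, 1.13 and 0.958 and the sorbitol values 1.83, 2.88, 1.26 and 2.47 (adjusted p = 0.0208), and 7 of 20 alternatives lost the call. In the CTCF locus, the peak that rose (log2 fold change 0.96, adjusted p = 0.0069) lay in the flank inside CARMIL2, and none of the 5 peaks within CTCF away from its start or in the nearer flank passed the test, with fold changes from -0.49 to -0.06. RAD21, PDS5A and PDS5B had no changed peak away from their starts, and PDS5B, with 8 peaks, had none at all. Its lowest p-value was at chr13:32647926-32648223 (vehicle 1.56, 1.20, 1.19 and 2.05, sorbitol 2.58, 2.41, 1.67 and 2.40, log2 fold change 0.61 ± 0.26, SE, adjusted p = 0.075). Chromosome 13, which holds PDS5B, had 30.4% higher and 3.59% lower peaks.

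The next comparison asked whether the gene ends changed differently from the rest of the same locus. The size of this difference hardly depends on a scaling by a single factor for each library, though its test can. The loess offset, which scales strong and weak peaks differently, was not run for this comparison. Under it the start peaks of NIPBL and STAG1 went from -0.25 to -0.06 and from -0.34 to -0.15, so the difference can depend on such scaling. Peaks within 1 kb of the gene ends and all other peaks of each locus were summed, and the 2 sums were compared with edgeR's diffSpliceDGE over 13066 protein-coding loci. The ends fell relative to the rest at 18.8% of these loci and rose at 10.3%. Among the 9 loci the ends fell relative to the rest at 4 (CTCF, STAG1, NIPBL and PDS5A) and rose at 1 (MAU2). The rest includes peaks in the 10 kb flanks, and no alternative without flanks was run for this comparison. At CTCF the flank peaks overlap CARMIL2 (-0.06 and 0.96), while peaks inside the gene away from its start ran from -0.49 to -0.13. At MAU2 the rest is mostly flank peaks over LOC124904656. At CTCF and MAU2 the contrast is therefore not one of start against gene interior. The NIPBL rest also holds flank peaks upstream of the start (0.08 and 0.06, neither called). The PDS5A rest is only 2 peaks, in the flank (0.36) and inside the gene (0.06), and neither was called.

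The share of the NIPBL counts in its end peak was 47.2%, 45.8%, 44.9% and 44.5% in vehicle and 39.5%, 34.5%, 35.7% and 36.0% in sorbitol. No library crossed between the groups, and the ends changed by -0.55 on the log2 scale relative to the rest (adjusted p = 5.13e-06). At STAG1 the share was 68.2%, 65.7%, 65.0% and 63.3% in vehicle and 53.2%, 57.9%, 57.3% and 59.4% in sorbitol (-0.53, adjusted p = 1e-05), again without overlap. CTCF went from 78.9%, 76.4%, 76.1% and 77.3% to 69.3%, 74.2%, 72.3% and 70.7% (-0.42, adjusted p = 0.00465). PDS5A went from 84.0%, 83.6%, 78.8% and 81.5% to 73.7%, 80.1%, 76.3% and 76.9%, with overlap through vehicle 3 and sorbitol 2 (-0.45, adjusted p = 0.0156).

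MAU2 moved the other way. Its end share was 41.2%, 45.0%, 42.3% and 45.2% in vehicle and 49.7%, 50.8%, 49.0% and 50.1% in sorbitol, so the start peak lost less than the rest (0.38, adjusted p = 0.00796). For RAD21, SMC3, WAPL and PDS5B the differences were -0.27, -0.20, -0.20 and -0.19, with adjusted p-values from 0.126 to 0.277. The PDS5A call was lost without vehicle 1, vehicle 2 or sorbitol 1 (adjusted p from 0.0602 to 0.0818), and with factors from contig peaks (those outside the numbered and sex chromosomes) none of the 5 calls was made while the differences themselves stayed between -0.56 and 0.38.

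**Figure D4:**
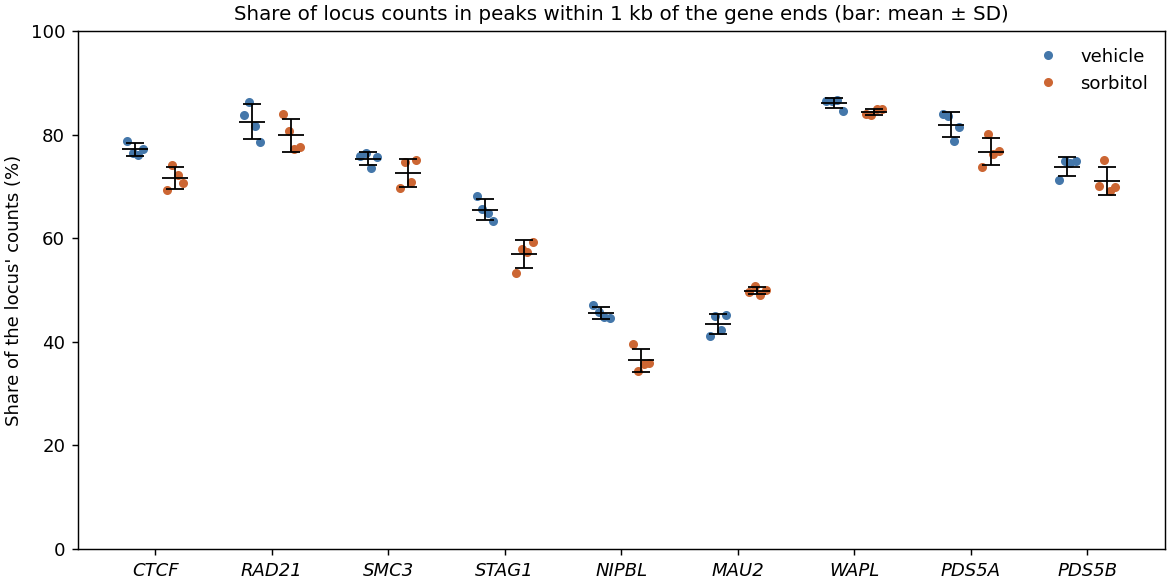
Share of the counts of each locus that fall in peaks within 1 kb of the gene's own ends (vertical axis, percent); points are libraries, and bars give the mean and SD of 4 vehicle (blue) or 4 sorbitol (orange) libraries. The orange points are lower than the blue ones without overlap at CTCF, STAG1 and NIPBL and higher without overlap at MAU2.

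Summed over all peaks of a locus, 5 of the 9 loci fell and 1 rose, where 52.4% of 18459 protein-coding loci fell and 9.9% rose. MAU2 fell by 0.60 on the log2 scale (SE 0.06, edgeR adjusted p = 3.4e-15), from 80.3 ± 3.91 to 52.8 ± 5.36 CPM (SD, n = 4). CTCF fell by 0.40 (SE 0.06, adjusted p = 1.2e-08), from 73.6 ± 1.51 to 55.6 ± 2.23. With the gene bodies alone, without flanks, the values were -0.47 at MAU2 (edgeR adjusted p = 8.12e-08) and -0.49 at CTCF (3.75e-10). PDS5A (-0.21), RAD21 (-0.20) and STAG1 (-0.13) had adjusted p-values from 0.00669 to 0.033, and WAPL rose by 0.15 (adjusted p = 0.0287). NIPBL (0.08) and SMC3 (0.06) did not pass, nor did PDS5B (-0.08). With library totals alone or gene-end factors the loci that fell were 2 (CTCF and MAU2) and those that rose were 3 (SMC3, NIPBL and WAPL), the STAG1 value turning to 0.05 with the latter. Without vehicle 3 the calls were 3, all lower. Summing the libraries that share a number in their names left 4 lower loci and no higher one, with adjusted p-values of 0.0532 for STAG1 and 0.0586 for WAPL. The STAG1 call was also lost without vehicle 1, vehicle 2, sorbitol 2 or sorbitol 3 (adjusted p from 0.0705 to 0.118), and the WAPL call was also lost without sorbitol 2 or sorbitol 4.

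Other genes of the pathway were taken from a list of 19 cohesin and loop-anchor genes, with 109 peaks. Of these peaks, 13 rose and 27 fell (median log2 fold change -0.15), where 16% of all tested peaks rose and 13.1% fell. Of the 29 at the genes' own ends none rose and 13 fell, where 8.74% of all gene-end peaks rose and 32.8% fell. By locus, 13 of 19 fell and none rose, beside 52.4% and 9.9% of all protein-coding loci. SMC1A, the partner of SMC3 in the ring, fell by 0.25 (adjusted p = 0.000611), and STAG2, the paralog of STAG1, had a locus value of -0.04 (adjusted p = 0.479) with its ends falling relative to the rest by 0.47 on the log2 scale (adjusted p = 1.7e-05). Ends fell relative to the rest at 5 of 18 such loci and rose at 2, beside 18.8% and 10.3% of all loci tested. The 14 condensin and SMC5/6 genes, related SMC complexes, had 79 peaks, of which 11 rose and 16 fell, and 7 of their 14 loci fell and 1 rose, to be read beside 16% and 13.1% of all peaks and 52.4% and 9.9% of all loci.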

How the data were processed

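ATAC-seq counts in peaks were analysed for 4 vehicle and 4 sorbitol libraries. The authors deposited a single table of raw counts per peak, and the depth of each library is its total in that table. The submitters' processing notes name Trim Galore 0.6.10, BWA 0.7.17, SAMtools 1.22, Picard, MACS2 2.2.9.1, bedtools, deepTools 3.5.4 and DESeq2 and the build hg38 (GRCh38), without roles. How peaks were merged, whether reads or fragments were counted and how duplicates were treated are not given in the sources used here. Peak starts count from 0 in the table and are printed counting from 1.

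R 4.3.3 with edgeR 4.0.16 was used. Low peaks were removed with filterByExpr (settings of 10 counts and a total of 15), which took out 49, TMM factors were computed, and treatment was the only term. Standard errors are the log2 fold change divided by the square root of the F statistic. Summed loci and the test of gene ends against the rest used the same factors. Adjustment was by Benjamini-Hochberg across every tested peak or locus. Methods were tested on simulated counts.

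Positions, strands and promoter sequences are from RefSeq (GRCh38.p14). Named peaks were, for each gene, the start peak (overlapping the promoter window, or else the strongest end peak), the peak with the smallest p-value, and any changed at least 2-fold. Members, lists and rules were chosen with earlier results of these data known. Alternatives were DESeq2 size factors, the DESeq2 1.42.0 Wald test, library totals, factors from gene-end peaks, a loess offset, other filters, a stricter threshold of 0.01, a replicate block, summed libraries, no flank, and leaving out each library; factors from contig peaks and leaving out vehicle 4 with sorbitol 4 were added after seeing the data.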

Additional observations from a re-analysis of the deposited data

Results flagged for a closer look

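Among 52 groups of 4 libraries at the named peaks and loci, 3 held a library far from the other 3 of its group, where chance gives about 2.6. The RAD21 start peak had 31.3 CPM in vehicle 4, while the rest of its group had 36.8 to 37.9. The NIPBL locus summed to 96.0 in vehicle 4, with 100.5 to 101.3 in vehicle 1 to 3, and to 115.0 in sorbitol 4, with 101.0 to 102.9 in sorbitol 1 to 3. These are the libraries that the second axis of variation set apart.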

How the results depend on the processing

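Of 77 member peaks, 26 changed (14 higher, 12 lower). With a mean of at least 50 counts 14 changed and 6 were higher. The main fit called 4 higher and 12 lower among the 33 members with such a mean. This filter also recomputes the library factors from the peaks kept. The CTCF start peak went from -0.51 to -0.42 under it, and 4 own-end peaks were lower and 1 higher. The threshold of 0.01 also gave 14 changed and 6 higher, and it leaves fewer calls by construction. Factors from contig peaks gave 8 changed, 5 higher and 3 lower, with 0 loci and 0 end differences called, against 14352 calls in the table in place of 37715; the cause was not tested. Gene-end factors gave 6 lower. With single libraries left out there were 17 to 27 changed peaks, 8 to 15 higher and 8 to 12 lower, 3 to 6 changed loci, 0 to 1 higher and 3 to 5 lower, and 4 to 5 end differences. Of the 6 changed loci, 3 remained in number at the threshold of 0.01, with 3 lower and 0 higher. Higher loci numbered 0 with contig factors, DESeq2 size factors, libraries summed by the number shared in their names (2 against 2), or without vehicle 4 and sorbitol 4, and 3 with library totals and with gene-end factors, where lower loci numbered 2; the cause was not tested.

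Signs turned only where no call had been made, except at the STAG1 locus (0.046 with gene-end factors, adjusted p = 0.407). The SMC3 start peak was -0.0062 with DESeq2 size factors, -0.0061 with the DESeq2 Wald test, -0.039 with contig factors, -0.033 without vehicle 4 and sorbitol 4, and between -0.026 and 0.060 when a library was left out. The PDS5B start peak was 0.00068 with library totals, 0.094 with gene-end factors, 0.061 with the loess offset and 0.011 with the count minimum, and its locus was 0.091 with gene-end factors. The CTCF start peak lost its call only with contig factors (-0.56, adjusted p = 0.0937), and the MAU2 start peak likewise (-0.44, adjusted p = 0.216).

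Libraries with the same replicate number did not deviate together over all tested peaks (correlations of 6.03e-05, 0.00768, -0.0338 and -0.148). Weak peaks with much counting error are among them, so these values do not settle whether the numbers mark pairs. The block used was the replicate number of the sample titles, not the number shared in the library names. With it, 24 member peaks changed (13 higher, 11 lower), with 6 loci (5 lower, 1 higher) and 5 end differences. Counting error limits the peaks inside genes, and PCR duplicates are not independent molecules.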
